A study of Mus musculus with 12 samples.

Results

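The cytosolic ribosomal protein genes were examined in the nucleus accumbens, the reward-related ventral part of the striatum, of adult mice whose mothers had been given an immune challenge in pregnancy. The genes were taken by name as the rows of the value table annotated with exactly 1 symbol of the Rpl or Rps series, including Rpsa and Rplp0 to Rplp2 and leaving out the S6 kinases and named pseudogenes. Where several rows carried a symbol, the row with the highest mean was used. This gave 76 genes, 47 named for the large subunit and 29 for the small subunit, out of 18820 gene symbols on the array. Behind them stood 387 rows of the 21218 with 1 symbol.

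Poly(I:C) offspring were C57BL/6N mice whose mothers had received 5 mg/kg of poly(I:C), a man-made RNA duplex recognised like a virus, into a vein on gestation day 17. Control offspring were C57BL/6N mice whose mothers had received saline in the same way on that day. All animals had taken part in cognitive and behavioural testing before dissection at 12 weeks, with core and shell of the accumbens in a single sample. Each group had 6 arrays, and 250 ng of total RNA went into each. The labels call them biological replicates, and the sources used here give no litter, sex, array strip or processing day. The p-values thus measure the spread between these arrays and take any litter mates as independent.

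Ribosomal proteins clothe the ribosomal RNA of the large subunit, which joins amino acids, and of the small subunit, which reads the messenger RNA. Their messenger RNAs are abundant in every cell type and begin with a run of pyrimidines, the terminal oligopyrimidine or TOP motif, through which the mTOR kinase pathway adjusts their translation. In neurons they are also found in dendrites and axons, where local protein synthesis takes place. Most of these proteins are present as a single copy per ribosome, and their genes are usually transcribed in step.

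The members covered 42 of 46 listed proteins of the large subunit and 25 of 31 of the small subunit. The rest of the listed proteins were not analysed here. The remaining 9 members were paralogs or genes that share only the name stem. They were Rpl3l, the muscle paralog of Rpl3, Rpl7l1, Rpl10l, Rpl32l, Rpl39l, Rps4l, which RefSeq lists as a transcribed pseudogene, Rps27l, a p53 target related to Rps27, Rps23rg1, a gene copied from Rps23 by reverse transcription, and Rps19bp1, which encodes a protein that binds Rps19 and SIRT1. No filter on low values was used, so all 76 members entered the test. Of their rows, 70 lay above the median level of the tested rows, 5.47 on the log2 scale.

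Promoters of 54 of the 67 ribosomal proteins among the members were matched by symbol in a RefSeq table of build GRCm38.p6, which gives 250 bases before and 50 bases after each annotated start. A TOP-like run, here a C followed by at least 4 further C or T bases and beginning within 5 bases of the annotated start on the sense strand, was present in 28 of their 64 promoters (43.8%) and in 17.1% of all 32851 promoters of the table. The letters CCGGAAG, a core bound by ETS factors and searched on both strands, were present in 25 of the 64 (39.1%) and in 8.86% of all promoters. The letters AAGATGG, part of the YY1 motif, were present in 10 (15.6%) and in 6.34% of all, again on both strands. These 3 searches can overlap each other, and a match describes letters only, not a bound site or a cause. The sequences below run 5′ to 3′ from 45 bases before to 20 bases after the start and show the family's promoter layout in members whose values are described further on. Capitals mark the TOP-like run at the start and, where it falls in the window, the ETS core.
Rps10, chr17:27635225-27635289, minus strand: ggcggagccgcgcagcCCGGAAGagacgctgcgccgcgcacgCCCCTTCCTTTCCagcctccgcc
Rps15a, chr7:118116128-118116192, minus strand: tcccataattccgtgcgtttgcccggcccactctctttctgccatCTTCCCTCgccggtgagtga
Rpl15, chr14:18270967-18271031, minus strand: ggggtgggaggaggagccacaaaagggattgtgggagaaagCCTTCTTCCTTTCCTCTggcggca
Rplp2, chr7:141447606-141447670, plus strand: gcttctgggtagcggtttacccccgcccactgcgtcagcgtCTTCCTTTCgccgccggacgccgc
Rps6, chr4:86857348-86857412, minus strand: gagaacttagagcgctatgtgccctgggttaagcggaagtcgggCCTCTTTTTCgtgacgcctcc
Rps15, chr10:80292386-80292450, plus strand: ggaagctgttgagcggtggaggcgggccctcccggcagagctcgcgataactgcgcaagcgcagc

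Rps10, Rps15a, Rpl15, Rplp2 and Rps6 carried the run at the annotated start, and Rps15 did not. In the comparison of poly(I:C) with control offspring, 6.57% of all tested rows were lower at an unadjusted p under 0.05. Among the 26 members with the run, 8 were lower at that p and the median log2 difference was -0.094. Among the 28 without it, 14 were lower and the median was -0.14. With the ETS core it was 10 of 24, with a median of -0.11, and without it 12 of 30, with a median of -0.12. With the YY1 letters it was 2 of 8, with a median of -0.10, and without them 20 of 46, with a median of -0.11. None of these differences between members with and without a motif was tested. The run was looked for only near the annotated start, so a member counted without it may still carry the TOP motif. Rpl4, for example, was counted without it, while a run of pyrimidines lies further upstream of its annotated start.

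Most ribosomal protein genes had lower values after poly(I:C) than in controls, by small amounts, and no member passed the adjusted threshold of 0.05 (limma with Benjamini-Hochberg adjustment over 21218 rows). Of the 76 genes, 65 had a difference below 0, against 49.1% of all tested rows. At an unadjusted p under 0.05, 25 of the 76 (32.9%) were lower, where 6.57% of all tested rows were. None of the 76 was higher at that p, where 7.83% of all rows were. Counting, as for the members, the highest-mean row of each of the 18820 symbols, 6.21% were lower, 7.95% higher, 48.4% below 0 and 0.0638% past the adjusted threshold. Rps10 and Rps15, 2 members of 76, had groups that did not overlap, against 0.523% of all rows lower without overlap. In all, 0.0613% of the tested rows passed the adjusted threshold. The members' log2 differences ran from -0.26 to 0.087, and a difference of -0.21, as for Rpl41, stands for 0.865 of the control level. RMA usually includes quantile normalization, which gives arrays a like distribution, but the settings used here are not stated. The array medians lay close together, from 4.78 to 4.85, so the differences are read relative to the other transcripts. In a dissected tissue, fewer cells of a type and less RNA per cell cannot be told apart.

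**Figure D1:**
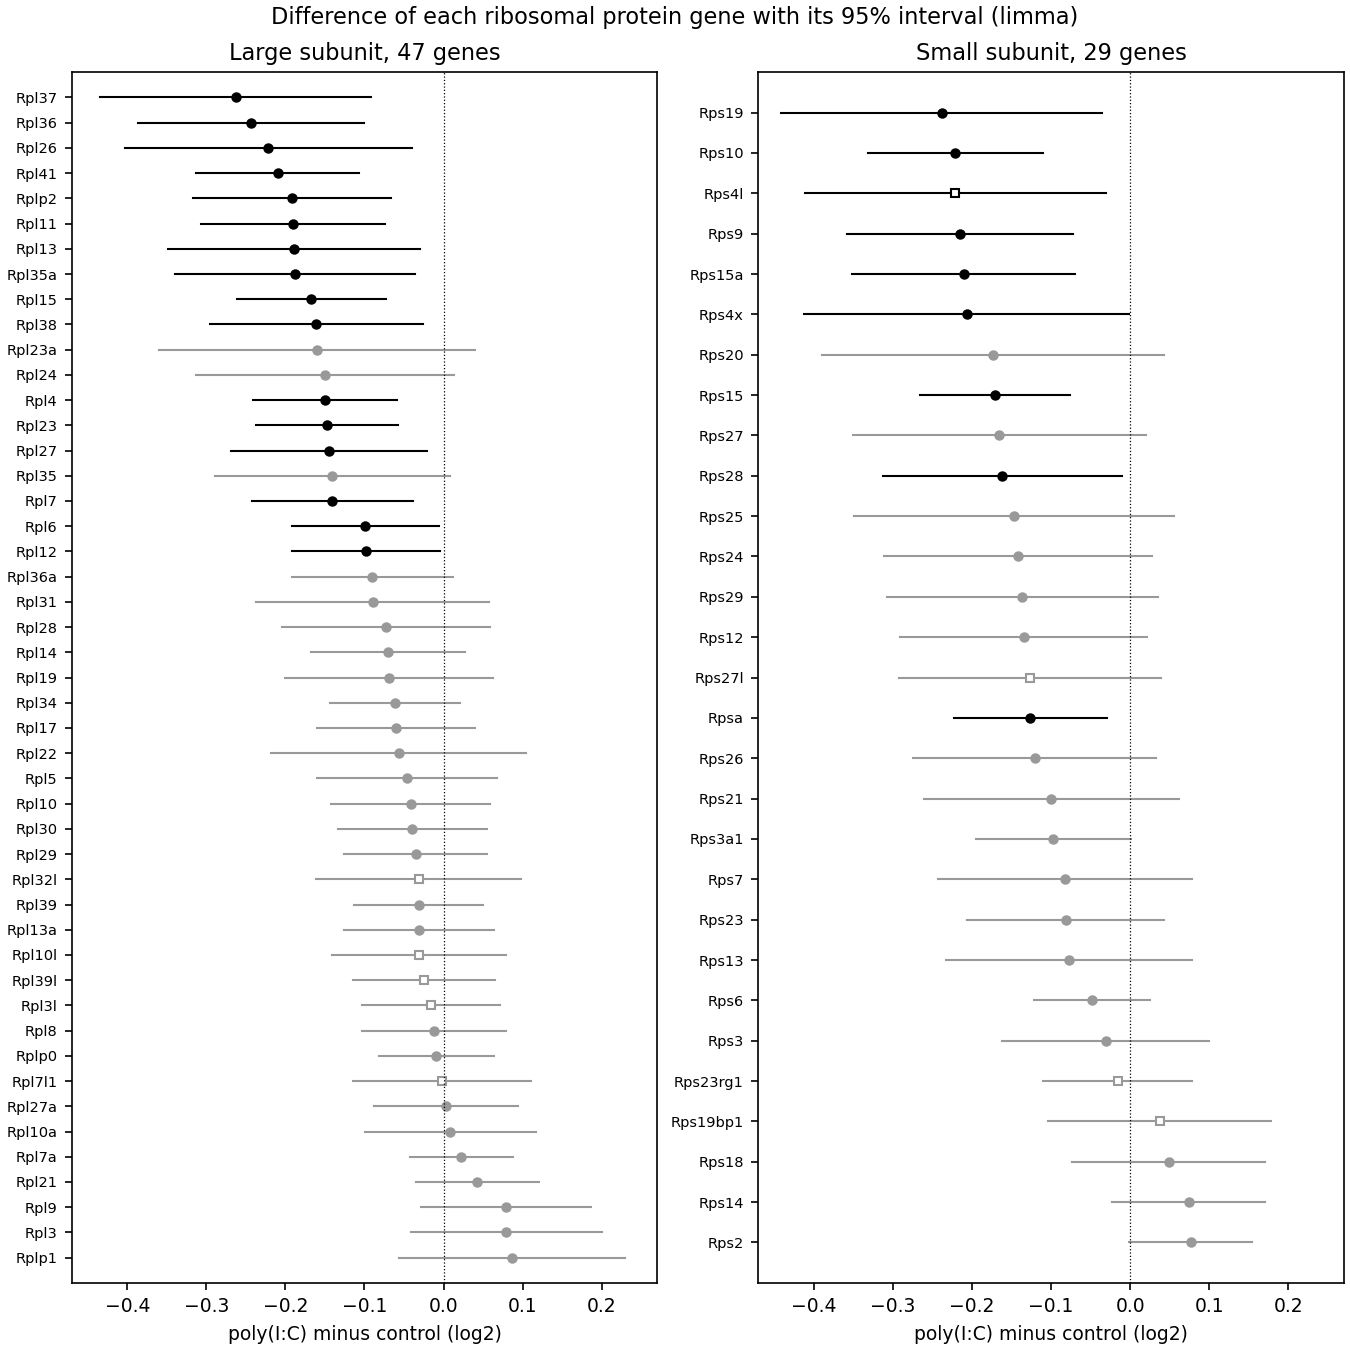
The log2 difference, poly(I:C) minus control, of each of 47 large subunit and 29 small subunit genes (points), with its 95% interval from limma (bars); black marks an unadjusted p under 0.05, open squares mark the 9 paralogs and other genes. Most points lie left of 0 in both panels, with 25 black points, all below 0.

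The large subunit had 40 of 47 genes lower in value, 16 of them (34.0%) at an unadjusted p under 0.05, and its median log2 difference was -0.069, beside 0.0016 over all tested rows. The small subunit had 25 of 29 lower in value, 9 of them (31.0%) at that p, and its median was -0.13. Restricted to the listed ribosomal proteins, the medians were -0.081 over 42 large subunit genes and -0.13 over 25 small subunit genes. The difference between the subunits was not tested.

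Arrays from controls differed widely in the mean level of these genes, whereas the means of arrays from poly(I:C) offspring were alike. The mean over the large subunit genes was 8.46 ± 0.008 in poly(I:C) offspring and 8.55 ± 0.077 in controls (SD, n = 6 arrays per group). Over the small subunit genes it was 8.29 ± 0.018 in poly(I:C) offspring and 8.40 ± 0.14 in controls. Control 4 stood at 8.67 and 8.61 for the large and small subunits, control 1 at 8.59 and 8.51, and control 2 at 8.57 and 8.40. Control 3 was the lowest of the 12 arrays, with 8.448 and 8.25, below each poly(I:C) array. The groups thus overlapped in both means.

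**Figure D2:**
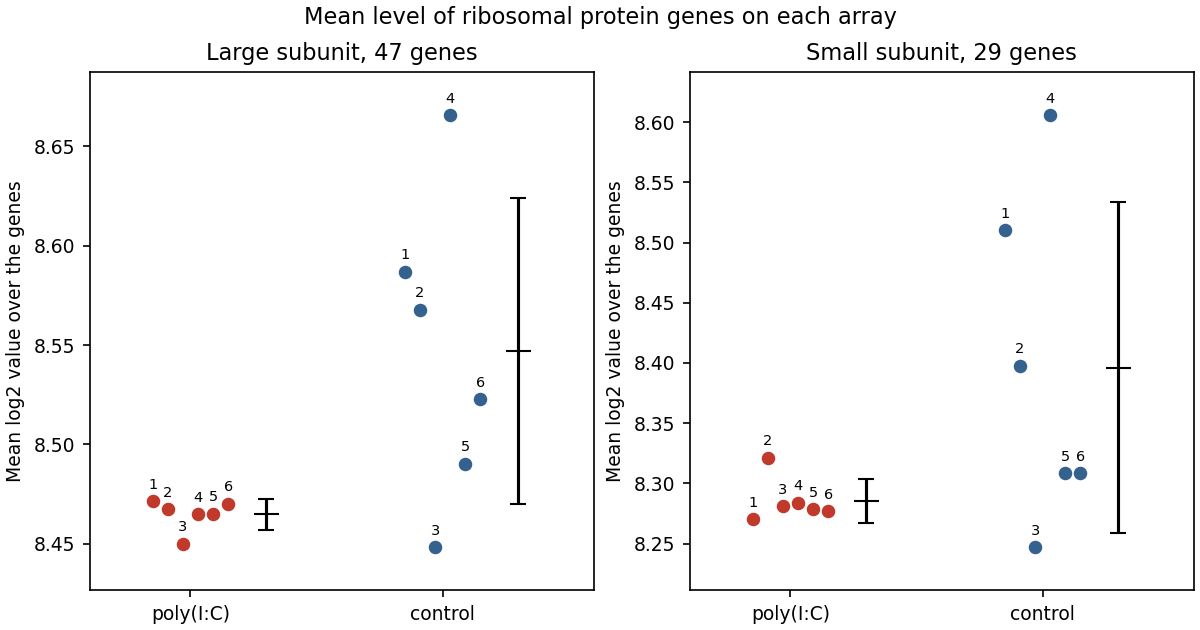
The mean log2 value over 47 large subunit genes (left) and 29 small subunit genes (right) on each array, numbered by replicate, with the group mean and SD beside the points (n = 6 arrays per group). Poly(I:C) arrays lie between 8.45 and 8.47 on the left, while controls run from 8.448 to 8.67.

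A wider spread among controls was also seen gene by gene, although poly(I:C) arrays were less alike in single genes than in the means. In Rpl31 and Rps4x, picked after their values were seen, poly(I:C) 6 stood apart in opposite directions. It was at 9.90 for Rpl31, with the other poly(I:C) arrays at 9.53 to 9.59, and at 8.15 for Rps4x, with the others at 8.47 to 8.63. The median SD of a member was 0.070 among poly(I:C) arrays and 0.12 among control arrays, against 0.077 and 0.088 over all tested rows. The SD was larger among controls for 64 of the 76 members and for 59.5% of all rows, a share that differed with the level of the row. At levels of 9 and over it was larger among controls for 26 of 34 members (76.5%), close to the 72.4% of all rows at that level. At levels of 7 to 9 it was larger for 29 of 29 members, against 64.7% of all rows there, and below 7 for 9 of 13 members, against 57.1%. Counting the members that stood above their own median over the 12 arrays gave 22 to 35 of 76 on poly(I:C) arrays. On control arrays the count was 67 on control 4, 66 on control 2, 60 on control 1, 47 on control 6, 38 on control 5 and 16 on control 3.

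The count of lower genes therefore depended on which controls were included. Without control 1 it was 12 for the large and 5 for the small subunit, where 7.23% of all rows were lower. Without control 4 it was again 12 and 5, where 5.32% of all rows were lower. Without control 3 it was 19 and 16, where 7.51% of all rows were lower. Without control 4 the median log2 differences were -0.042 for the large and -0.074 for the small subunit. Leaving out control 1, control 4 and poly(I:C) 6, the arrays with the lowest weights over all rows, left counts of 13 and 5 where 7.58% of all rows were lower, and medians of -0.040 and -0.034. In that fit 1 large and 2 small subunit genes were higher at an unadjusted p under 0.05, where 9.68% of all rows were. That choice was made after seeing the data. The share of lower members stayed above the share of all rows in each of these fits, and the median stayed below 0.

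Markers of neighbouring tissue also differed between arrays. The 10 choroid plexus genes had a mean level of 4.39 to 4.63 in poly(I:C) offspring and 4.57 to 6.87 in controls, with control 6 at 6.87 and control 4 at 6.02. All 10 had a difference below 0, 2 of them at an unadjusted p under 0.05. The 9 measured oligodendrocyte genes had a mean of 7.78 to 7.94 in poly(I:C) offspring and 7.91 to 8.50 in controls, and 8 of them were lower at that p. The 8 cortical neuron genes had a mean of 6.25 to 7.15 in poly(I:C) offspring and 5.85 to 7.01 in controls, and 5 were higher at that p. Over all tested rows 49.1% had a difference below 0, and 6.57% were lower and 7.83% higher at that p. Control 1, control 2 and control 4 were high in ribosomal protein genes, and control 1 was unlike control 2 and control 4 in these markers. Control 1 had a choroid plexus mean of 4.57 and an oligodendrocyte mean of 7.91, both the lowest among controls. Its cortical neuron mean, 7.01, was the highest among controls. Control 4 had choroid plexus, oligodendrocyte and cortical neuron means of 6.02, 8.10 and 5.94, and control 2 of 5.04, 8.43 and 6.05. Both lay above each poly(I:C) array in the choroid plexus and oligodendrocyte means and below each in the cortical neuron mean. With the choroid plexus and cortical means as covariates, 6 large and 5 small subunit genes were lower and the medians were -0.049 and -0.10, where 4.08% of all rows were lower. In that fit 1 large subunit gene was higher at an unadjusted p under 0.05, where 3.89% of all rows were. The part of the oligodendrocyte genes in the ribosomal protein values was not tested. Without control 4 and control 6 the counts were 10 and 6, and 4.00% of all rows were lower. The 10 measured accumbens neuron genes, among them Drd1, Drd2 and Ppp1r1b, had means from 9.42 to 9.82 in poly(I:C) offspring and from 9.20 to 9.77 in controls, well above the median of all rows.

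Rpl41, the smallest ribosomal protein, had the smallest p of the large subunit. It ran from 10.60 to 10.84 with a median of 10.73 in poly(I:C) offspring, against 10.82 to 11.05 with a median of 10.95 in controls. A single poly(I:C) array, number 1, reached into the control range. Its log2 difference was -0.21 (95% interval -0.31 to -0.11, limma adjusted p = 0.0966), and 0.353% of all rows were lower with an adjusted p under 0.1.

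Several proteins that bind deep in the ribosomal RNA or line the exit tunnel followed. Rpl15 ran from 9.34 to 9.59 (median 9.43) in poly(I:C) offspring, against 9.54 to 9.69 (median 9.61) in controls, a log2 difference of -0.17 (limma adjusted p = 0.142). Rpl4, which forms part of the tunnel wall through which the new chain leaves, ran from 8.354 to 8.522 in poly(I:C) offspring, against 8.520 to 8.72 in controls, with a log2 difference of -0.15 (limma adjusted p = 0.155). In both genes the groups overlapped by few arrays, since 5 of 6 poly(I:C) arrays lay below each control.

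Rpl23, at the face that meets the small subunit, had a log2 difference of -0.15 (8.88 ± 0.053 in poly(I:C) offspring and 9.02 ± 0.080 in controls, SD, n = 6 each, limma adjusted p = 0.155). Rpl36 had a log2 difference of -0.24 and ran from 9.38 to 9.62 in poly(I:C) offspring, against 9.60 to 9.98 in controls (limma adjusted p = 0.148). Control 3 and control 5 were the low controls of Rpl36, at 9.60 and 9.62. Of the 9 measured genes at or near the exit tunnel, all were lower in value, against 49.1% of all rows, and 2, among them Rpl4, at an unadjusted p under 0.05, against 6.57% of all rows.

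Rpl5 and Rpl11 enter the ribosome together with the 5S RNA, and both bind the p53 regulator MDM2 when they are free. Rpl11 ran from 8.20 to 8.36 in poly(I:C) offspring, against 8.29 to 8.65 in controls, and differed by -0.19 on the log2 scale (95% interval -0.31 to -0.075, limma adjusted p = 0.155). Rpl5 ran from 8.92 to 9.22 in poly(I:C) offspring, against 8.98 to 9.14 in controls, a log2 difference of -0.046 (95% interval -0.16 to 0.068). Whether the partners of the 5S particle differ from each other was not tested.

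The acidic stalk recruits elongation factors, and 2 of its 4 measured genes were lower at an unadjusted p under 0.05, against 6.57% of all rows. Differences between them were not tested. Rplp2 had a log2 difference of -0.19 (4.62 ± 0.090 in poly(I:C) offspring and 4.81 ± 0.12 in controls, SD, n = 6 each, limma adjusted p = 0.176) on a row below the median level of all rows. Rplp0, the stalk protein often used as a reference gene, ran from 9.38 to 9.45 in poly(I:C) offspring, against 9.37 to 9.54 in controls, with a log2 difference of -0.0094 (95% interval -0.082 to 0.063). Rplp1 stood at a log2 difference of 0.087 (95% interval -0.056 to 0.23), the most positive of all members. Rpl12, at the stalk base and named here after its values were seen, was at -0.098 (unadjusted p = 0.0413, limma adjusted p = 0.327).

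The remaining named large subunit genes had intervals that included 0. They were Rpl3, beside the peptidyl transferase centre, at 0.080, Rpl21 at 0.042, Rpl27a at 0.0033, Rpl39 at -0.031, Rpl10, which completes the late large subunit, at -0.042, and Rpl22 at -0.057. In Rpl3 the low arrays were control 1 and control 4, at 10.32 and 10.33, while the other controls lay between 10.55 and 10.63 and poly(I:C) arrays between 10.49 and 10.63. These are the same arrays that were high for most other members. The paralogs Rpl3l and Rpl39l lay at -0.016 and -0.025, on rows with mean levels of 3.52 and 3.18.

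**Figure D3:**
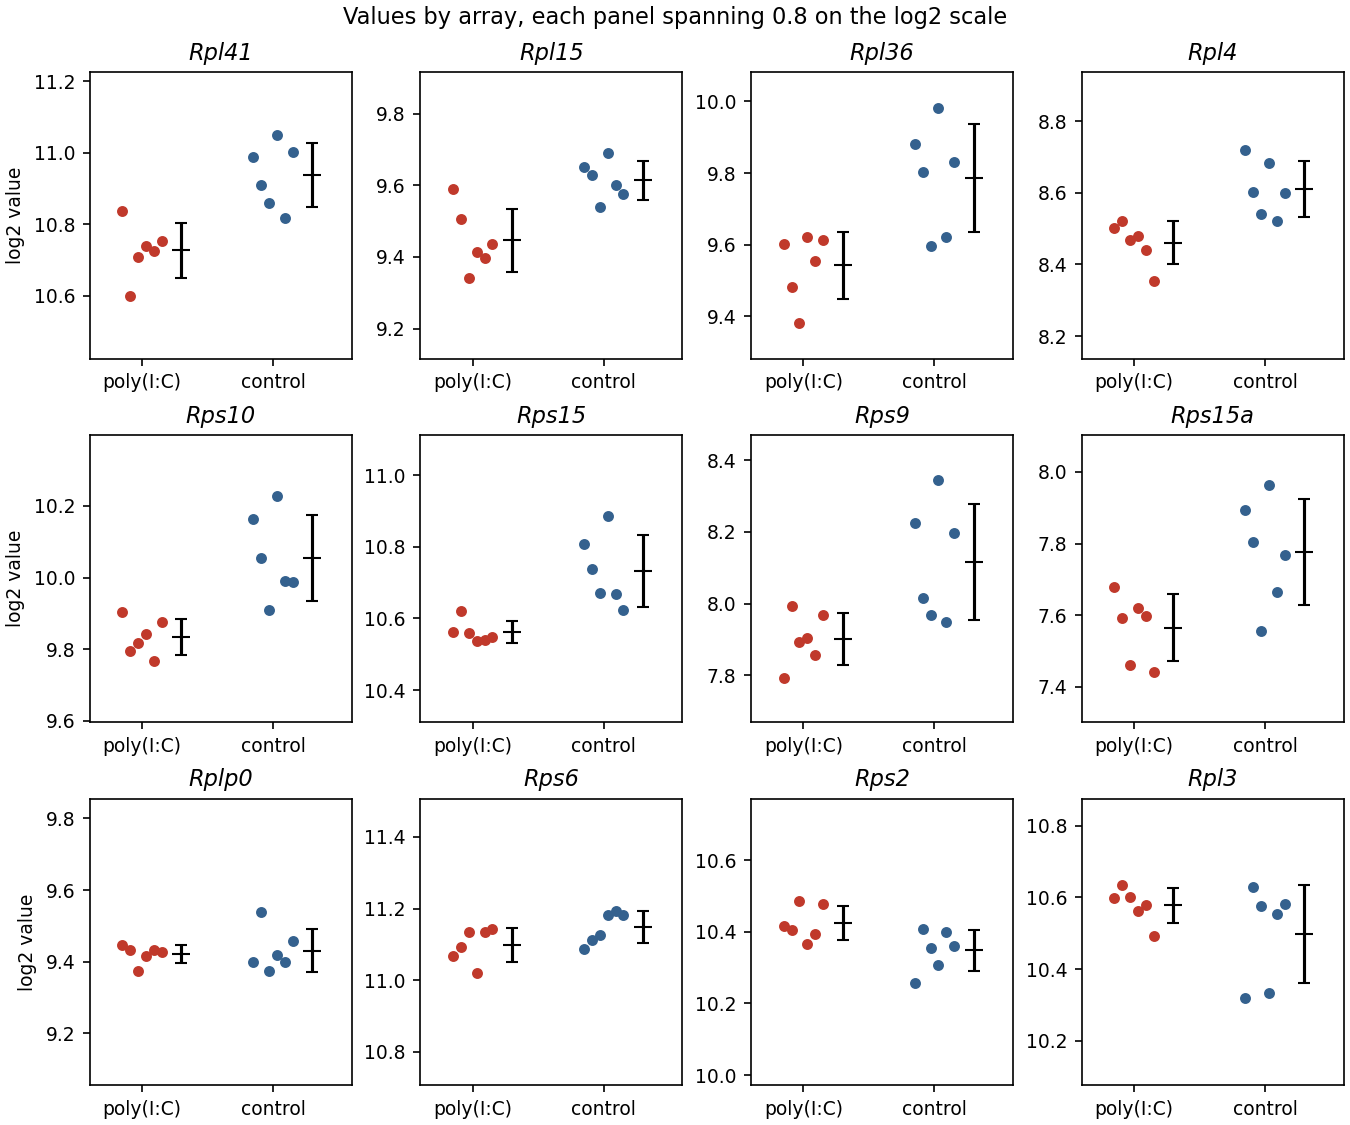
Log2 values on each array of 12 members, poly(I:C) left and control right, with group mean and SD (n = 6 arrays per group); each panel spans 0.8 on the log2 scale. The upper 8 genes are lower in poly(I:C) offspring, with separated groups for Rps10 and Rps15. The groups of Rplp0, Rps6, Rps2 and Rpl3 overlap, and Rps2 values lie mostly higher in poly(I:C) offspring.

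In the small subunit, the proteins of the head, the part that swivels as the messenger RNA moves, included both genes whose groups did not overlap. Rps10, which lies at the head near the messenger RNA entry, ran from 9.77 to 9.90 with a median of 9.83 in poly(I:C) offspring, against 9.91 to 10.23 with a median of 10.02 in controls. The groups did not overlap, although control 3 came within a narrow margin of poly(I:C) 1. The log2 difference was -0.22 (95% interval -0.33 to -0.11, limma adjusted p = 0.103). Its other rows were at -0.19, with overlapping groups (limma adjusted p = 0.159), and at -0.17, without overlap (limma adjusted p = 0.153).

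Rps15, a head protein next to the decoding site, ran from 10.536 to 10.620 in poly(I:C) offspring, against 10.622 to 10.89 in controls. The groups were separated, by a margin smaller than the SD of either. The log2 difference was -0.17 (95% interval -0.27 to -0.077, limma adjusted p = 0.134). Its other rows, with log2 differences of -0.25 and -0.26, were separated too (limma adjusted p = 0.0830 and 0.0592).

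Rps19, whose loss of function causes Diamond-Blackfan anaemia in humans, had the most negative value of the subunit, -0.24, with a wide interval from -0.44 to -0.035 (limma adjusted p = 0.279). It ran from 7.62 to 7.94 in poly(I:C) offspring, against 7.81 to 8.34 in controls, where control 1 and control 4 were at 8.32 and 8.34 and the other controls at 8.01 or below. Of 10 measured head proteins 9 were lower in value and 4 at an unadjusted p under 0.05. Of 15 proteins outside the head, 13 were lower in value and 4 at that p. Over all rows the shares were 49.1% lower in value and 6.57% lower at that p, and the difference between head and rest was not tested.

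Outside the head, Rps9, near the messenger RNA entry, had a log2 difference of -0.22 (7.90 ± 0.073 in poly(I:C) offspring and 8.12 ± 0.16 in controls, SD, n = 6 each, limma adjusted p = 0.179). This value rests on the choice of row, since the other Rps9 row, with nearly the same mean level (8.0075 against 8.0088), was at -0.077 (unadjusted p = 0.135, limma adjusted p = 0.492). Rps15a, a body protein, had -0.21 (7.57 ± 0.094 in poly(I:C) offspring and 7.78 ± 0.15 in controls, limma adjusted p = 0.183, n = 6 each), and its 3 rows ran from -0.21 to -0.078. Rpsa, also known as the laminin receptor precursor, had -0.13 (8.78 ± 0.030 in poly(I:C) offspring and 8.90 ± 0.10 in controls, limma adjusted p = 0.234, n = 6 each). All 3 genes had overlapping groups.

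Rps6, the substrate of the S6 kinases whose phosphorylation is used as a sign of mTOR activity, had a log2 difference of -0.049 (95% interval -0.12 to 0.024) in its messenger RNA. It ran from 11.02 to 11.14 in poly(I:C) offspring, against 11.09 to 11.19 in controls. All 8 rows of Rps6 were lower in value, 1 of them at an unadjusted p under 0.05. That row, with a mean level of 11.06 against 11.12 for the row used, was at -0.12 (95% interval -0.20 to -0.042, limma adjusted p = 0.174). Rps3, at the messenger RNA entry and also a DNA repair enzyme, was at -0.031 and Rps27 at -0.17, with intervals that included 0. The members above 0 included Rps2, another entry protein, at 0.076 (95% interval -0.0014 to 0.15), Rps14 at 0.074 and Rps19bp1 at 0.037. Among the paralogs, Rps4l was at -0.22 (unadjusted p = 0.0262, limma adjusted p = 0.284), Rps27l at -0.13 and Rps23rg1 at -0.016.

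Ribosomal protein genes have many processed copies in the mouse genome, and 56 of the 76 members had more than 1 row, up to 41 for Rpl21. Rows of a gene can share probes and cannot be read as separate measurements. Of the 387 rows, 10 repeated the values of another row exactly, including rows of Rpl41. Within a gene the rows mostly ran one way: in 48 of the 56 genes all rows had a difference of one sign. Among the 28 genes with 5 or more rows, the median range of differences within a gene was 0.056.

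Counting every row, 84 of 387 (21.7%) were lower at an unadjusted p under 0.05 and 15 (3.88%) were higher. Over all tested rows these shares were 6.57% and 7.83%. In the large subunit 61 of 269 rows (22.7%) were lower and 3 (1.12%) higher. In the small subunit 23 of 118 rows (19.5%) were lower and 12 (10.2%) higher. Of the higher rows, 11 belonged to Rps2, all of whose 18 rows had a positive difference, from 0.048 to 0.11, 3 belonged to Rpl21 and 1 to Rps14. Rps2 had the smallest adjusted p among its rows at 0.237 (limma). Rpl15 had all 8 rows lower at that p, Rpl11 all 6 and Rpl41 all 5, and Rpl36 had 9 of 10. The tenth row of Rpl36 was at -0.019 with a mean level of 5.21, where the row used had a mean level of 9.66. Rpl27a had a single row lower at that p, at -0.12, while the row used was at 0.0033.

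**Figure D4:**
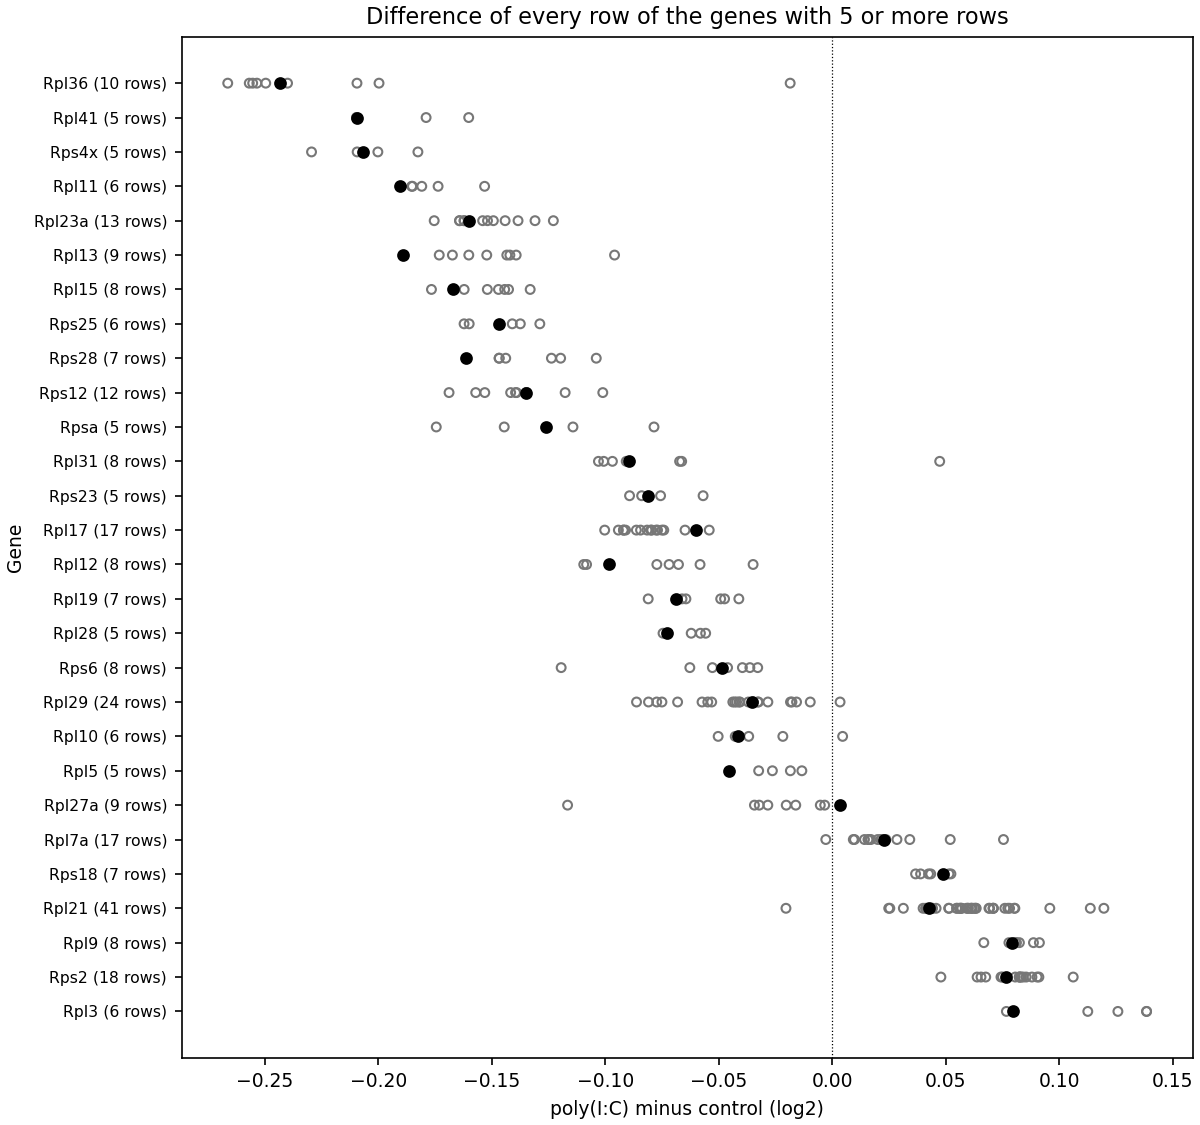
The log2 difference, poly(I:C) minus control, of every row of the 28 genes with 5 or more rows, with the row used in black and the others as open circles. Rows of a gene lie close together, with Rpl36 at the lower end and Rps2, Rpl9 and Rpl3 at the upper end.

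Genes around the ribosomal proteins were read from lists. Fau, the precursor of a small subunit protein, had a log2 difference of -0.12 (9.86 ± 0.087 in poly(I:C) offspring and 9.98 ± 0.099 in controls, SD, n = 6 each, limma adjusted p = 0.316). It was the only one of 4 listed names of ribosomal proteins outside the Rpl and Rps naming that was measured. Of 14 measured genes whose messenger RNAs also carry the TOP motif, 3 were lower at an unadjusted p under 0.05 and 0 were higher, against 6.57% and 7.83% of all rows. These 3 were the initiation factor subunit gene Eif3e at -0.32 (limma adjusted p = 0.0820), the elongation factor gene Eef1b2 at -0.20 and Naca, a chaperone of new chains, at -0.11. The median of the 14 was -0.030.

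Among genes that build ribosomes, more were higher than lower in value. Of 33 measured genes of ribosome assembly and RNA polymerase I, 23 were higher in value, 5 at an unadjusted p under 0.05, and 1 was lower at that p. Over all rows 49.1% were below 0, 7.83% were higher and 6.57% lower at that p, so the lower count was not above the share of all rows. The lower one was Nhp2, a subunit of the particles that modify ribosomal RNA, at -0.41 (7.46 ± 0.19 in poly(I:C) offspring and 7.88 ± 0.27 in controls, SD, n = 6 each, limma adjusted p = 0.155). Among the higher ones were Bysl, needed to assemble the small subunit, at 0.16 and Grwd1 at 0.18, and the median of the list was 0.029. Of 17 genes of mTOR signalling and TOP control, 4 were higher at that p and 1 lower, with a median of 0.042. The share of all rows was 7.83% higher and 6.57% lower, near which the 1 of 17 lower lies. Examples were Tsc2, an inhibitor of mTOR, at 0.14 and Maf1, a repressor of RNA polymerase III, at 0.17, against the RNA-binding protein gene Larp4 at -0.21. None of these genes passed the adjusted threshold, and whether the lists differ from the ribosomal protein genes was not tested. Levels ran from 4.59 to 8.50 in the assembly list and from 4.36 to 8.24 in the mTOR list. The shares of all rows differed with level. At levels of 7 to 9, 2822 of 4567 rows were higher in value and 13.4% were higher at an unadjusted p under 0.05. Below 7 it was 7356 of 15617 rows and 5.76%. The lists were not compared with rows of like level.

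**Figure D5:**
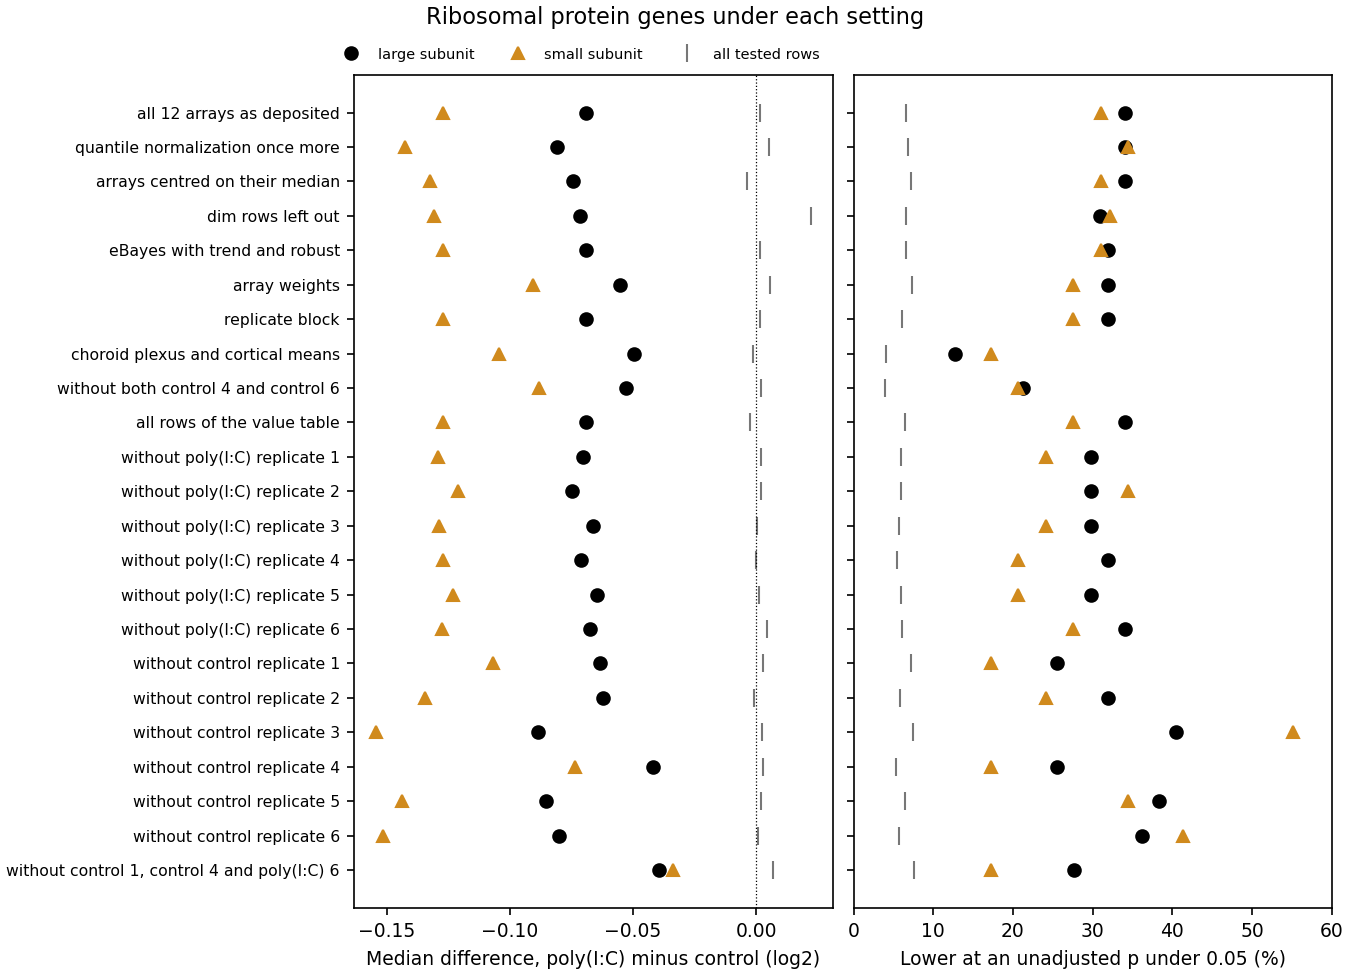
The median log2 difference, poly(I:C) minus control (left), and the percent of genes lower at an unadjusted p under 0.05 (right) of the large subunit (circles) and small subunit (triangles) under each setting, with all tested rows as grey bars. Both medians stay below 0 in each setting shown, with counts from 6 to 19 genes for the large subunit and 5 to 16 for the small subunit.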

How the data were processed

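The authors deposited log2 values for 35556 rows on each of the 12 arrays, made on Affymetrix Mouse Gene 1.1 ST array strips. Per the submitters' processing notes the values came from RMA and Partek 6.6. The sources used here do not state the RMA settings or the build. The lowest value was 1.86, the highest 12.29, and the medians of the arrays lay between 4.78 and 4.85, as fits a log2 scale. No 2 arrays held the same values. The number of arrays limits the precision.

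Rows were named from the platform annotation, which gave 21218 rows with 1 symbol, 1881 with several and 12457 with none. All 76 members matched the RefSeq gene table by gene identifier, and 0 symbols changed. Each row was fitted in R 4.3.3 with limma 3.58.1 (lmFit and eBayes, exposure as the only term, two-sided) and adjusted over the 21218 rows. Differences are poly(I:C) minus control. The fit was tested on simulated data. Arrays were grouped by the titles, and alternatives covered normalization, dim rows, the variance model, array weights, tissue covariates and single arrays.

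Named members are, per subunit, the 6 with the smallest p, the 2 highest and 2 lowest in level, the 2 most positive, a fixed list, genes with disagreeing rows and genes without overlap. From each further list up to 3 genes with the smallest p are named. Members and lists were chosen with earlier results of these data known.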

Additional observations from a re-analysis of the deposited data

Results flagged for a closer look

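Dixon's test was applied to 70 sets of 6 arrays, namely the named members and the subunit means in each group. In 5 of them 1 array stood far from the others, where chance gives about 1 in 20 sets. For Rpl23, poly(I:C) 6 was at 8.98, with the next array of its group at 8.89. For Rps15, poly(I:C) 2 was at 10.620, with the next at 10.563, and this array set the narrow margin between the groups. For the paralog Rps27l, control 4 was at 6.75, with the next control at 6.35. The large subunit mean of poly(I:C) 3 was 8.450, with the next at 8.465, and the small subunit mean of poly(I:C) 2 was 8.321, with the next at 8.284. Both means come from the narrow poly(I:C) range, and the gaps are smaller than the SD among controls.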

How the results depend on the processing

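No member passed the adjusted threshold (limma) under any setting run, and both subunit medians stayed below 0 in all of them. In the fit as reported, 13 of all tested rows passed that threshold. The number was 38 after quantile normalization of the deposited values, 20 without dim rows and 1 with a trended robust variance. It was 140 with array weights and 146 without control 1, control 4 and poly(I:C) 6. It was 0 with the tissue covariates, without control 4 and control 6, and over all rows of the table, and 0 to 84 leaving out single arrays. With the replicate block it was 0, with 15 large and 8 small subunit genes lower, where 6.03% of all rows were lower. In their deviations from the group means, same-numbered arrays correlated from -0.20 to 0.27, above 0.1 in 1 of 6 pairs. Any other difference between samples also enters these values, so they do not settle whether the numbers pair the arrays. The large subunit count of 16 was 6 with the covariates, 10 without control 4 and control 6, 61 of 269 over every row, and 12 to 19 leaving out single arrays. The small subunit count of 9 was 5 with the covariates, 5 without control 1, control 4 and poly(I:C) 6, 23 of 118 over every row, and 5 to 16 leaving out single arrays. Of all rows, 5.32% to 7.51% were lower leaving out single arrays, and 4.08% with the covariates. At an unadjusted p under 0.05, 1 large subunit gene was higher without poly(I:C) 1 and without control 4. Without poly(I:C) 4, control 2 or control 5, 1 small subunit gene was higher. Of all rows, 5.64% to 8.27% were higher in these fits. Reversals of named genes were all in genes whose intervals included 0 in the fit as reported. The largest reversed value was 0.046 for Rps3, larger in size than its -0.031 in that fit. Rpl27a was at -0.013 after quantile normalization, -0.0020 with centred arrays, -0.015 with array weights and -0.017 without the 3 arrays of lowest weight, where Rpl22 was at 0.020 and Rps3 at 0.046. Rpl3l was at 0.0015 after quantile normalization and 0.0029 without control 4 and control 6. With the covariates Rpl3l was at 0.0041, Rpl10 at 0.026, Rpl5 at 0.0017, Rplp0 at 0.017 and Rps19bp1 at -0.00018. Leaving out single arrays, Rpl27a ran from -0.024 to 0.028, Rpl3l from -0.031 to 0.0084, Rplp0 from -0.021 to 0.012, Rps23rg1 from -0.042 to 0.011 and Rps3 from -0.067 to 0.0099. The causes were not tested.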
